A study of Mus musculus with 54 samples.

Results

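The genes described here are 9 genes grouped as lineage transcription factors of group 2 innate lymphoid cells (ILC2s): Gata3, Rora, Id2, Id3, Ahr, Bcl11b, Tcf7, Ets1 and Gfi1. The grouping is a name for the list, and a change in a member is not by itself a change in ILC2 identity. They were picked by gene symbol from the 2 deposited expression tables. The rule uses no measured value, but the genes were chosen with earlier results of these data known. All 9 of 9 were listed in both tables, among 10799 genes of the culture table and 10176 genes of the table of sorted cells.

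The cells came from the small intestine of C57BL/6 mice aged 8 to 12 weeks, and each library is labelled as pooled from males and females. The culture table holds 24 libraries of wild-type ILC2s kept with IL-2 and IL-7, either with added IL-25 or without it, for 4, 48 or 72 h, with 4 libraries in each of the 6 groups. The second table holds 16 libraries of cells labelled iILC2 or nILC2, from mice described as lacking the retinoid X receptor gamma (Rxrg-/-, here KO) or from Rxrg+/+ mice (here CTRL), all labelled IL25 for 48 h, with 4 libraries in each of the 4 groups. Their values were deposited under the heading Ctrl_cKO, which would mean a conditional knockout, so which design applies is not settled here. RNA was read with Smart-seq2, a full-length protocol for small amounts of RNA, and the values are TPM, a transcript abundance that is scaled for transcript length, so that levels can be set side by side between genes. What the prefixes i and n stand for is not given in the labels. The labels also do not say whether libraries of a group came from separate animals or cultures, and the tables give no read counts, so p-values measure the spread between these libraries, which may be technical, and the sequencing depth is unknown.

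ILC2s are tissue lymphocytes without antigen receptors that answer epithelial alarm cytokines such as IL-25 with type 2 cytokines. GATA3 and the nuclear receptor RORα are required for the lineage. ID2 and ID3 bind E proteins, a family of basic helix-loop-helix activators, and keep them off DNA at the E-box, and ID2 is the member that all helper-like ILCs depend on. AHR senses dietary and microbial ligands, and is best known in the gut for sustaining ILC3s. TCF-1, the product of Tcf7, and BCL11B act in ILC progenitors and in ILC2 identity, ETS1 is needed for ILC2 expansion, and GFI1 is a repressor that holds down genes of other ILC types.

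Id2 and Id3 moved in opposite directions between the cell types compared below, so the 250 bases upstream of their start sites are shown (RefSeq, GRCm38.p6, 5′ to 3′ on each gene's own strand). The Id2 window lies at chr12:25096093-25096342 on the minus strand and the Id3 window at chr4:136143572-136143821 on the plus strand. Capitals mark the E-box letters CANNTG, a motif that reads the same on both strands; both were searched.
Id2: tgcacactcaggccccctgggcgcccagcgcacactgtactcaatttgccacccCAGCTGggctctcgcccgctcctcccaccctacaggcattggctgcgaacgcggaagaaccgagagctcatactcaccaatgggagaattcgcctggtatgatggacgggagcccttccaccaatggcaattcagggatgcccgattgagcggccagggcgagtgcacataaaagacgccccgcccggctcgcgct
Id3: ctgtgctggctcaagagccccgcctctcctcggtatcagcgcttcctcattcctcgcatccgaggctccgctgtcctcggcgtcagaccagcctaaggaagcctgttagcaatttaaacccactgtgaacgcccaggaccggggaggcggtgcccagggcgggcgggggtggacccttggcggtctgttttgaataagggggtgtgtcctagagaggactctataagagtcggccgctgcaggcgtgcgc
The Id2 window holds 1 match and the Id3 window none, where 66.2% of 32851 promoter windows of 250 bases hold at least 1. These letters are a description of the windows and do not mark bound sites.

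The members spanned a wide range of levels. Averaged over the culture libraries, Id2 ranked 199th and Gata3 219th among 10799 genes by TPM, Rora 754th and Ets1 1214th, and Id3, Ahr, Bcl11b, Gfi1 and Tcf7 fell between 4302nd and 8637th. In the sorted cells the order was much the same at the top, with Id2 326th and Gata3 601st of 10176, while Tcf7 stood at 3652nd. All 9 passed the filter on low values (4 or more libraries of a table reaching 1 TPM), which left 10548 and 10069 genes for testing.

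The listed genes took 873200 to 898025 TPM of each culture library and 849733 to 886670 TPM of each sorted library. All 10 ILC2 markers were listed in both tables. Of 8 T cell markers 3 were listed in the culture table (Cd3e, Cd3g and Lat) and 2 in the table of sorted cells (Cd3g and Lat), and of 4 B cell markers Cd79b alone was listed. The Y-linked transcripts summed to under 5 TPM in 2 of 4 KO libraries and 1 of 4 CTRL libraries of each cell type, although all are labelled as pooled from both sexes, and no culture library was under 5 TPM. Rxrg itself averaged 2.18 ± 0.826 TPM in KO nILC2s and 15.1 ± 3.29 TPM in CTRL nILC2s, and 0.280 ± 0.207 TPM in KO iILC2s and 1.62 ± 0.250 TPM in CTRL iILC2s (SD, n = 4 each). Both differences gave p = 0.0286 in a two-sided exact permutation test, the smallest value that 4 against 4 libraries allow.

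IL-25 was set against its absence at each time of culture, to see how activation moves the lineage factors. At 48 h Gata3, Rora, Id2, Id3, Ahr and Tcf7 were all lower with IL-25, and for each of these 6 genes the 4 libraries with IL-25 lay below all 4 without. How many of all genes were separated in this way was not counted. At 4 h 4 members had changed, Rora and Tcf7 upward and Id2 and Ets1 downward. By 72 h Id2 no longer differed past the threshold, Ets1 was higher with IL-25, and Gata3, Rora, Id3, Ahr and Tcf7 were still lower. Changes were called at an adjusted p under 0.05 (limma on log2(TPM + 1), Benjamini-Hochberg over all genes tested), and fold changes on that scale understate the changes of genes near 0.

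These counts have a busy background. At 4 h 4 of 9 members were called, 2 higher and 2 lower, where 40.3% of 10548 genes were called, 13.4% higher and 26.9% lower. At 48 h 6 of 9 were called, all lower, where 50.1% of genes were called, 21.4% higher and 28.7% lower. At 72 h 6 of 9 were called, 1 higher and 5 lower, where 48.5% of genes were called, 15.3% higher and 33.2% lower. Over the 9 members the median log2 difference was -0.01 at 4 h, -1.15 at 48 h and -0.74 at 72 h, beside -0.12, -0.09 and -0.20 over all genes. Scaling by the median of ratios brought the median of all genes to 0.00 at 4 h, -0.01 at 48 h and 0.01 at 72 h, so each difference is also given here against that of the median gene. On that footing Rora stood at 0.72, Tcf7 at 0.65, Id2 at -0.26 and Ets1 at -0.68 at 4 h. The 6 genes called at 48 h stood between -2.17 (Rora) and -0.88 (Id3), and the 5 called lower at 72 h between -1.77 (Rora) and -0.54 (Gata3), with Ets1 at 0.69. With that scaling 51.5% of the called genes were higher with IL-25 at 4 h and 55.1% at 72 h, against 33.3% and 31.5% on TPM as deposited; with quantile normalization 2079 were higher and 2082 lower at 4 h, and 46.6% were higher at 72 h.

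Gata3, the master regulator of type 2 lymphocytes, was measured at 498, 511, 613 and 601 TPM with IL-25 and at 608, 667, 606 and 564 TPM without it at 4 h, and these ranges overlapped (difference -0.14, adjusted p = 0.14, called lower only with quantile normalization, at -0.27 and adjusted p = 0.0053). At 48 h it was at 304, 279, 301 and 295 TPM with IL-25, against 703, 643, 803 and 742 TPM without. At 72 h the values were 533, 512, 528 and 519 TPM with IL-25 and 793, 901, 832 and 982 TPM without. The groups stood clear of each other at both later times, and Gata3 fell by 1.29 (SE 0.08, adjusted p = 2.7e-13) at 48 h and by 0.74 (SE 0.08, adjusted p = 1.1e-08) at 72 h on the log2 scale in limma. In bulk RNA, fewer cells expressing a gene and less RNA per cell cannot be told apart, here or in the results below.

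Rora, the gene of the nuclear receptor RORα, changed direction with time. At 4 h it reached 329, 327, 446 and 388 TPM with IL-25 and 220.2, 282, 252 and 223 TPM without, a rise of 0.60 (SE 0.11, adjusted p = 1.4e-04). At 48 h it was at 45.9, 32.0, 33.7 and 34.6 TPM with IL-25, against 164, 154, 218 and 181 TPM without. At 72 h it was at 49.1, 46.8, 46.7 and 47.7 TPM with IL-25, against 189, 184, 177 and 206 TPM without. No ranges overlapped at any of the 3 times, and the later differences of -2.27 (SE 0.11, adjusted p = 1.6e-14) and -1.97 (SE 0.11, adjusted p = 2.7e-13) are 4.91-fold and 3.98-fold lower mean TPM.

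Id2, the inhibitor of E proteins, was lower with IL-25 at 4 h and 48 h and not called at 72 h. With IL-25 it was at 411, 374, 417 and 411 TPM at 4 h, against 517, 538, 541 and 506 TPM without. At 48 h the values were 389, 354, 384 and 329 TPM with IL-25 and 862, 866, 896 and 865 TPM without. At 72 h they were 941, 910.2, 865 and 822 TPM with IL-25 and 1042, 839, 910.1 and 1025 TPM without, and these ranges overlapped. The log2 differences were -0.38 (SE 0.06, adjusted p = 3.5e-05), -1.26 (SE 0.06, adjusted p = 1.8e-14) and -0.11 (SE 0.06, adjusted p = 0.18). The 72 h value turned to 0.13 (adjusted p = 0.10) with median-of-ratios scaling and was called lower at -0.25 (adjusted p = 8.2e-04) with quantile normalization and at -0.16 (adjusted p = 0.035) without library 2 of the 72 h group lacking IL-25.

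Id3, the second E protein inhibitor, was almost silent at the start of culture and switched on with time in both conditions. At 4 h it was listed at 0, 0, 1.14 and 0.25 TPM with IL-25 and at 0.33, 0.30, 0.29 and 0.25 TPM without. At 48 h it was at 10.8, 9.88, 13.1 and 15.4 TPM with IL-25, against 26.2, 29.1, 20.5 and 23.9 TPM without, and at 72 h at 37.4, 30.5, 35.3 and 34.5 TPM with IL-25, against 62.0, 55.8, 55.3 and 64.2 TPM without. The libraries with IL-25 lay below those without at both later times, by 0.97 (SE 0.18, adjusted p = 9.5e-05) and 0.77 (SE 0.18, adjusted p = 0.0013) on the log2 scale. With a pseudocount of 0.1 TPM in place of 1 TPM the differences were -1.03 (adjusted p = 0.071) and -0.78 (adjusted p = 0.17), past the threshold at neither time. At each of these times 15 of 16 alternatives kept the call, the compared groups fitted alone among them.

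Ahr, the ligand-activated receptor, did not differ past the threshold at 4 h, with 47.2, 42.7, 44.1 and 36.3 TPM with IL-25 and 40.3, 36.2, 43.4 and 53.2 TPM without. At 48 h it was at 2.77, 1.3, 2.41 and 1.17 TPM with IL-25, against 10.8, 9.75, 13.1 and 9.30 TPM without, and at 72 h at 2.06, 2.67, 2.04 and 1.92 TPM with IL-25, against 10.03, 6.53, 7.45 and 8.99 TPM without. It fell by 2.04 (SE 0.17, adjusted p = 4e-10) and 1.53 (SE 0.17, adjusted p = 7.9e-08) with IL-25, without overlap.

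Tcf7, which encodes the progenitor factor TCF-1, was detected mainly at 4 h, at 11.03, 6.21, 11.8 and 11.5 TPM with IL-25 and 5.29, 7.29, 7.35 and 6.19 TPM without. That rise of 0.54 (SE 0.18, adjusted p = 0.022) came with overlapping ranges and was lost at a pseudocount of 0.1 TPM (adjusted p = 0.23), with the compared groups fitted alone (adjusted p = 0.073), and when IL-25 library 1, 3 or 4 or library 1 without IL-25 was left out (adjusted p from 0.061 to 0.075). At 48 h it was listed at 0.22, 0, 0.18 and 0.17 TPM with IL-25, against 1.91, 0.99, 2.06 and 1.33 TPM without, and at 72 h at 0, 0.14, 0.12 and 0 TPM with IL-25, against 1.27, 1.42, 2.11 and 2.06 TPM without. The falls were 1.15 (SE 0.18, adjusted p = 1.1e-05) and 1.34 (SE 0.18, adjusted p = 1.5e-06) on the log2(TPM + 1) scale.

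Ets1 moved in opposite directions early and late. At 4 h it was at 75.4, 78.1, 92.3 and 83.7 TPM with IL-25, against 141, 144, 149 and 139 TPM without, a fall of 0.79 (SE 0.09, adjusted p = 1.6e-07). At 48 h the ranges met, with 90.1, 74.2, 83.3 and 71.6 TPM with IL-25 and 82.8, 95.3, 113 and 81.1 TPM without (difference -0.21, SE 0.09, adjusted p = 0.058). At 72 h it was higher with IL-25, at 150.2, 155, 158 and 136 TPM, against 101, 104, 104 and 113 TPM without (0.50, SE 0.09, adjusted p = 8.3e-05). The 48 h difference passed the threshold with quantile normalization (-0.30, adjusted p = 0.0027) and when either of libraries 1 and 4 without IL-25 or library 1 with IL-25 was left out.

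Bcl11b and Gfi1 stayed low and were not called at any time. Bcl11b ranged from 3.27 to 7.37 TPM over the 12 libraries with IL-25 and from 4.23 to 12.9 TPM over the 12 without, with differences of -0.40 (adjusted p = 0.29), -0.68 (adjusted p = 0.055) and -0.45 (adjusted p = 0.21) at 4, 48 and 72 h. Without library 1 of the 48 h group lacking IL-25, the 48 h difference was -0.89 (adjusted p = 0.018), and without library 2 of that group or library 2 of the 48 h group with IL-25 it was -0.85 (adjusted p = 0.028) and -0.79 (adjusted p = 0.044). Gfi1 ranged from 1.73 to 5.97 TPM with IL-25 and from 1.54 to 4.67 TPM without, with differences of 0.19, 0.44 and 0.33 (adjusted p = 0.58, 0.15 and 0.28). Gfi1 at 48 h differed by 0.65 without library 1 of the 48 h group lacking IL-25 (adjusted p = 0.037) and by 0.70 with quantile normalization (adjusted p = 0.025). Bcl11b at 48 h differed by -0.74 with array weights (adjusted p = 0.027).

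**Figure D1:**
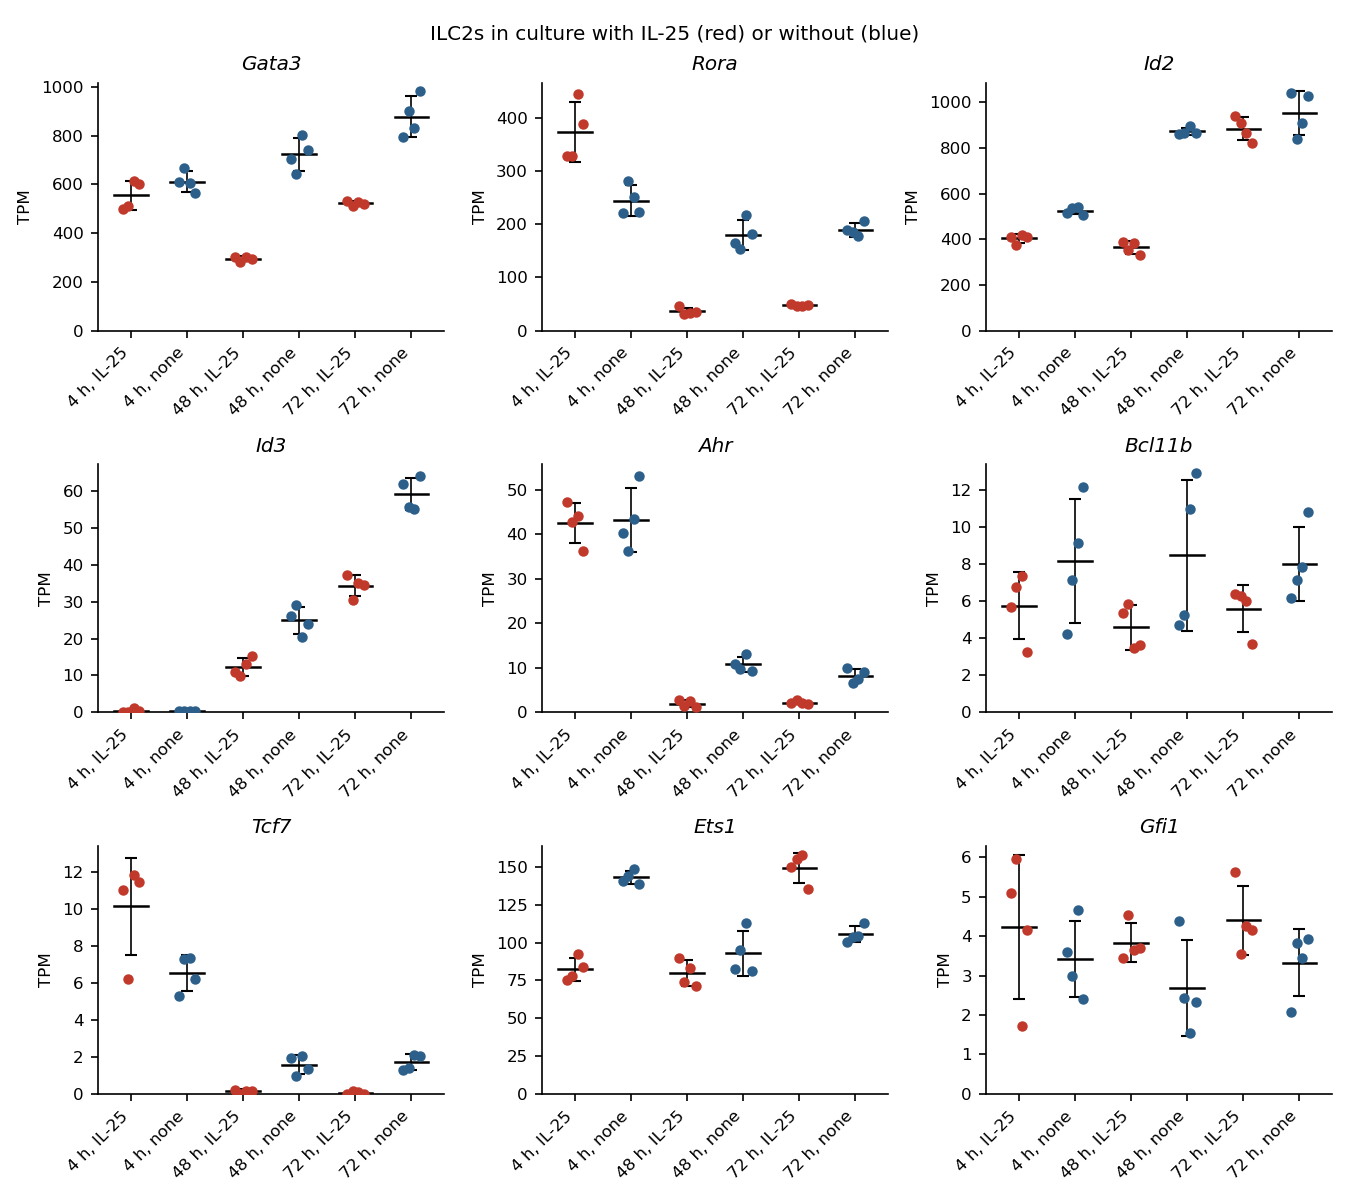
TPM of the 9 members in each culture library (points), with the mean (line) and SD (bars, n = 4) of each group, IL-25 in red and no IL-25 in blue at 4, 48 and 72 h. At 48 h the 4 IL-25 libraries of Gata3, at 279 to 304 TPM, lie below the 4 others at 643 to 803 TPM, and Id2 with IL-25 reaches 822 to 941 TPM again at 72 h.

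The size of the IL-25 effect itself differed between times for most members. Between 48 h and 4 h the effect differed for 7 of 9 members, where 27.9% of genes tested did, 17.2% upward and 10.7% downward. It shifted downward for 6 members, namely Rora (-2.87, SE 0.16, adjusted p = 7.1e-13), Ahr (-2.03), Tcf7 (-1.69), Gata3 (-1.15), Id3 (-0.96) and Id2 (-0.88), and upward for Ets1 (0.58, SE 0.13, adjusted p = 0.0012). Between 72 h and 48 h it differed for 3 of 9, where 14.7% of genes did, 5.22% upward and 9.5% downward. All 3 moved upward, namely Id2 by 1.16 (SE 0.09, adjusted p = 3.1e-09), Ets1 by 0.71 (SE 0.13, adjusted p = 4.2e-04) and Gata3 by 0.55 (SE 0.11, adjusted p = 7.8e-04). For Rora, Ahr, Id3 and Tcf7 this later difference lay between -0.19 and 0.51 and did not pass the threshold, although Rora passed with the median of ratios (0.43, adjusted p = 0.033). With that scaling 58.8% of all called differences were upward, against 35.5% on TPM as deposited, and with quantile normalization 53.4% were. The difference of Id3 between 48 h and 4 h was -0.42 (adjusted p = 0.69) at a pseudocount of 0.1 TPM.

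Time in culture was then compared within each condition. At 48 h against 4 h without IL-25, 7 of 9 members changed, 3 higher and 4 lower, where 64.4% of genes changed, 19.9% higher and 44.5% lower. Id3 rose by 4.32 (SE 0.18, adjusted p = 4e-16), to 25.0 ± 3.62 TPM at 48 h against 0.293 ± 0.0330 TPM at 4 h (SD, n = 4 each), and Id2 rose by 0.73 (SE 0.06, adjusted p = 4.2e-10). Ahr fell by 1.91 (SE 0.17, adjusted p = 8.6e-10), to 10.7 ± 1.69 TPM at 48 h against 43.3 ± 7.25 TPM at 4 h, and Tcf7 by 1.56 and Ets1 by 0.63. Gata3 rose by 0.24 (adjusted p = 0.0076) and Rora fell by 0.45 (adjusted p = 0.0015), but the median gene fell by 0.28 here, and each call ended under 1 of the other scalings: Rora was at -0.12 (adjusted p = 0.30) with the median of ratios and Gata3 at 0.11 (adjusted p = 0.21) with quantile normalization. With the median of ratios 51.7% of called genes were higher at 48 h, against 30.8% on TPM as deposited, and with quantile normalization 43.8% were.

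At 72 h against 48 h without IL-25, Id3 was the 1 member of 9 called, where 0.379% of genes were called, 0.284% higher and 0.0948% lower. It reached 59.3 ± 4.46 TPM at 72 h, against 25.0 ± 3.62 TPM at 48 h (1.22, SE 0.18, adjusted p = 0.0034). That call was lost at a pseudocount of 0.1 TPM (adjusted p = 0.28) and kept in 15 of 16 alternatives. Of all called genes 75.0% were higher at 72 h on TPM as deposited, 31.9% with the median of ratios and 44.2% with quantile normalization.

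At 48 h against 4 h with IL-25, 6 of 9 members were called, 1 higher and 5 lower, where 72.2% of genes were called, 27.6% higher and 44.5% lower. Ahr fell to 1.91 ± 0.798 TPM at 48 h, against 42.6 ± 4.56 TPM at 4 h (-3.94, SE 0.17, adjusted p = 4.2e-16), and Rora to 36.5 ± 6.31 TPM at 48 h against 372 ± 56.4 TPM at 4 h (-3.32, SE 0.11, adjusted p = 3e-18). Tcf7 fell by 3.25 and Gata3 by 0.91, while Id3 rose by 3.36. Id2 was called lower at -0.15 (SE 0.06, adjusted p = 0.040) with overlapping ranges, a value that turned to 0.13 (adjusted p = 0.065) with the median of ratios and lost its call with the compared groups fitted alone (adjusted p = 0.056) or when IL-25 library 1, 3 or 4 of 4 h or 2 or 4 of 48 h was left out. Ets1 at -0.05 was not called on TPM as deposited and stood at 0.23 (adjusted p = 0.0040) with the median of ratios, under which 50.9% of called genes were higher against 38.3% as deposited.

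At 72 h against 48 h with IL-25, 5 of 9 members rose and 0 fell, where 31.2% of genes were called, 13.4% higher and 17.9% lower. Id3 rose by 1.43 (SE 0.18, adjusted p = 1.3e-06), Id2 by 1.28 (SE 0.06, adjusted p = 1.6e-13), Ets1 by 0.90, Gata3 by 0.82 and Rora by 0.39 (SE 0.11, adjusted p = 0.011). In each of these 5 the 4 libraries of 72 h lay above the 4 of 48 h. The share of all genes for which this held was not counted. With the median of ratios 53.2% of all called genes were higher, against 42.9% on TPM as deposited.

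Ordered by mean TPM, most members had neighbouring groups that could not be separated by their ranges. Gata3 was highest without IL-25 at 72 h, then at 48 h and 4 h without, 4 h with and 72 h with IL-25, each overlapping the next, and IL-25 at 48 h stood apart as the lowest. Rora was highest with IL-25 at 4 h and lowest with IL-25 at 48 h, and the only neighbours that overlapped were the groups without IL-25 at 72 h and 48 h. The Id3 groups were apart from 72 h without IL-25 down to 48 h with IL-25, and only the pair at 4 h overlapped. For Bcl11b and Gfi1 every neighbouring pair of the 6 groups overlapped.

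The other genes of these pathways were read from lists. Of the E proteins that ID2 and ID3 restrain, Tcf3, Tcf4 and Tcf12 were listed, and Id1 was not. None of the 3 was called at 48 h, where 50.1% of all genes were, and Tcf3 averaged 7.36 TPM with IL-25 and 8.00 TPM without. Tcf4 was lower with IL-25 at 4 h, at 5.02 TPM against 7.55 TPM without (-0.55, adjusted p = 0.024), and Tcf12 at 72 h, at 3.69 TPM with IL-25 against 6.45 TPM without (-0.67, adjusted p = 0.0055). The median over the 3 was -0.46, -0.42 and -0.44 at the 3 times.

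Of 9 genes of the AHR pathway, the AHR partner ARNT, the repressor AHRR, targets and chaperones, 2 were higher and 1 lower with IL-25 at 4 h, 2 higher and 4 lower at 48 h, and 1 higher and 4 lower at 72 h. Of all genes 13.4% were called higher and 26.9% lower at 4 h, 21.4% and 28.7% at 48 h, and 15.3% and 33.2% at 72 h. At 48 h Ahrr averaged 1.59 TPM with IL-25 and 7.42 TPM without (-1.69), and Tiparp, an AHR target, averaged 61.7 TPM with IL-25 and 128 TPM without (-1.04). Nqo1, a quinone reductase, averaged 34.5 TPM with IL-25 and 71.1 TPM without (-1.02), and Arnt fell by 0.75. The median over the 9 was -0.16, -0.75 and -0.42 at 4, 48 and 72 h, beside the medians of all genes above.

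Of 18 other ILC transcription factors tested, 4 were higher and 1 lower with IL-25 at 4 h, 4 higher and 5 lower at 48 h, and 6 higher and 5 lower at 72 h. Among all genes 13.4% were called higher and 26.9% lower at 4 h, 21.4% and 28.7% at 48 h, and 15.3% and 33.2% at 72 h. The counts at 48 h were near those shares. At 48 h Nfil3, needed for ILC progenitors, averaged 72.3 TPM with IL-25 and 6.73 TPM without (3.26, adjusted p = 2.5e-14). Tox2, an HMG-box factor, averaged 42.5 TPM with IL-25 and 3.71 TPM without (3.25), and Myb 7.93 TPM with IL-25 and 0.255 TPM without (2.83). Gata1 was at 0.0375 TPM with IL-25 and 3.05 TPM without (-1.94). Of the factors of other ILC types, Tbx21 was listed but too low to test and Eomes was not listed.

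Of 14 ILC2 receptor and effector genes tested, 6 were higher and 4 lower with IL-25 at 4 h, 7 higher and 5 lower at 48 h, and 7 higher and 4 lower at 72 h. The shares of all genes were 13.4% higher and 26.9% lower at 4 h, 21.4% and 28.7% at 48 h, and 15.3% and 33.2% at 72 h. Il5, the eosinophil growth factor, averaged 2101 TPM with IL-25 and 187 TPM without at 48 h (3.48), and Il13 averaged 199.8 TPM with IL-25 and 23.9 TPM without (3.01), in the same libraries in which Gata3 and Rora were lower. Il17rb, the IL-25 receptor subunit, was at 18.0 TPM with IL-25 and 124 TPM without (-2.72).

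Markers of other cell types moved with IL-25 as well. The T cell marker sum was lower with IL-25 at each time without overlap, at 44.2 to 60.3 TPM with IL-25 against 110 to 116 TPM without at 4 h, 63.7 to 79.7 TPM with against 204 to 255 TPM without at 48 h, and 148 to 162 TPM with against 247 to 269 TPM without at 72 h. Of its 3 listed genes 2, 3 and 2 were called lower at 4, 48 and 72 h, where 26.9%, 28.7% and 33.2% of all genes were. The sum was mostly Lat and Cd3g, which averaged 119 and 110 TPM at 48 h without IL-25, where Cd3e averaged 2.64 TPM. Cd3d, Cd4, Cd8a, Cd8b1 and Trac were not listed, so the sum does not show T cell content. Cd79b was lower with IL-25 at 4 h, at 12.3 to 19.5 TPM with against 25.2 to 30.1 TPM without, and higher later, at 71.3 to 91.5 TPM with against 43.5 to 49.8 TPM without at 48 h and 132 to 157 TPM with against 37.6 to 47.1 TPM without at 72 h. Prf1, the NK marker tested, likewise was lower at 4 h (-1.32) and higher at 48 h (1.58) and 72 h (2.99). Of the 2 listed epithelial markers Epcam was lower at all 3 times (-0.93, -1.70 and -0.77), and Krt18 was higher at 48 h (2.73) and 72 h (3.46). Kit, the listed mast cell marker, was higher at 4 h (0.60) and lower at 48 h (-0.80), and Cd68, the listed myeloid marker, was higher at 72 h (1.64). The part of any of these in the values of Gata3, Tcf7, Bcl11b, Ets1 or Id3, which T and B cells also use, was not tested.

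The 2 cell types were then compared within each genotype. In CTRL mice 8 of 9 members differed between iILC2s and nILC2s, where 45.5% of 10069 genes did, 21.9% higher and 23.6% lower. Id3 was higher in iILC2s, and Id2, Tcf7, Ahr, Gfi1, Gata3, Ets1 and Rora were lower. Over the 9 the median log2 difference was -0.76, beside -0.03 over all genes. In KO mice 6 of 9 were called, 1 higher and 5 lower, where 31.4% of genes were called, 13.8% higher and 17.6% lower, with a median of -0.36 beside -0.05 over all genes.

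The inhibitors of E proteins changed in opposite directions. Id2 was at 99.6, 97.2, 108 and 99.1 TPM in CTRL iILC2s and at 751, 672, 799 and 797 TPM in CTRL nILC2s, 7.47-fold lower in iILC2s (-2.89, SE 0.11, adjusted p = 3.5e-12). In KO mice it was at 131, 116, 109 and 93.2 TPM in iILC2s and 675, 483, 446 and 474 TPM in nILC2s (-2.19, SE 0.11, adjusted p = 2e-10). Id3 was at 23.7, 18.5, 18.4 and 27.5 TPM in CTRL iILC2s and at 2.27, 1.39, 1.56 and 0 TPM in CTRL nILC2s (3.42, SE 0.43, adjusted p = 4.1e-06). In KO mice it was at 18.5, 17.0, 22.3 and 23.2 TPM in iILC2s and 0.20, 2.31, 7.53 and 4.15 TPM in nILC2s (2.54, SE 0.43, adjusted p = 2.1e-04). No ranges overlapped in either genotype. Id3 made up 12.3% to 19.9% of the summed TPM of both inhibitors in KO iILC2s and 14.6% to 21.7% in CTRL iILC2s, against 0.0296% to 1.66% in KO nILC2s and 0% to 0.301% in CTRL nILC2s.

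Gata3 and Rora differed less. Gata3 was at 189, 154, 158 and 167 TPM in CTRL iILC2s and 286, 263, 294 and 287 TPM in CTRL nILC2s, a fall of 0.76 (SE 0.08, adjusted p = 9.2e-07), and in KO mice at 166, 162, 166 and 183 TPM in iILC2s and 244, 211, 186 and 233 TPM in nILC2s, a fall of 0.36 (SE 0.08, adjusted p = 0.0032). Rora was at 99.3, 85.3, 83.9 and 74.2 TPM in CTRL iILC2s and 114, 133, 125 and 111 TPM in CTRL nILC2s, a fall of 0.49 (SE 0.13, adjusted p = 0.0055). The iILC2 and nILC2 ranges were apart in these 3 comparisons. In KO mice Rora was at 103, 83.9, 86.4 and 91.2 TPM in iILC2s and 158, 105, 107 and 89.2 TPM in nILC2s, with overlap (-0.30, SE 0.13, adjusted p = 0.095). With the replicate number as a block, which the KO libraries share, that difference was called at adjusted p = 0.043, as it was with quantile normalization (adjusted p = 0.044) and without nILC2 KO library 4 (adjusted p = 0.026).

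Ahr and Tcf7 were both lower in iILC2s of either genotype. Ahr was at 3.32, 2.63, 2.41 and 3.28 TPM in CTRL iILC2s and 17.2, 12.0, 18.7 and 22.2 TPM in CTRL nILC2s (-2.22, SE 0.18, adjusted p = 2.2e-08), and at 4.38, 3.79, 5.50 and 4.28 TPM in KO iILC2s and 9.83, 8.32, 11.7 and 8.25 TPM in KO nILC2s (-0.94, SE 0.18, adjusted p = 7e-04). Tcf7 was at 9.71, 7.27, 4.51 and 6.52 TPM in CTRL iILC2s and 53.9, 42.2, 53.4 and 49.6 TPM in CTRL nILC2s (-2.70, SE 0.21, adjusted p = 1.2e-08), and at 12.5, 7.67, 6.91 and 6.17 TPM in KO iILC2s and 51.8, 42.2, 51.9 and 32.2 TPM in KO nILC2s (-2.31, SE 0.21, adjusted p = 1.9e-07). None of these ranges overlapped.

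Ets1 and Gfi1 were lower in CTRL iILC2s and Bcl11b was not called. Ets1 was at 199, 152, 169 and 175 TPM in CTRL iILC2s and 264, 243, 252 and 255 TPM in CTRL nILC2s (-0.55, SE 0.10, adjusted p = 2e-04). In KO mice it was at 185, 176, 177 and 181 TPM in iILC2s and 277, 195, 189 and 208 TPM in nILC2s (-0.26, SE 0.10, adjusted p = 0.058), apart in range but short of the threshold, and the replicate block gave adjusted p = 0.018. It was also called with quantile normalization (adjusted p = 0.020) and without nILC2 KO library 2 or 3 (adjusted p = 0.043 and 0.025). Gfi1 averaged 1.99 ± 0.342 TPM in CTRL iILC2s and 5.29 ± 0.817 TPM in CTRL nILC2s (-1.07, SE 0.23, adjusted p = 0.0011), and fell by 1.06 in KO iILC2s against KO nILC2s (adjusted p = 0.0019), with overlap. Bcl11b averaged 8.26 ± 2.88 TPM in CTRL iILC2s and 8.11 ± 2.59 TPM in CTRL nILC2s (SD, n = 4 each; difference 0.01, adjusted p = 0.98). It was called in 0 of the 14 comparisons made.

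**Figure D2:**
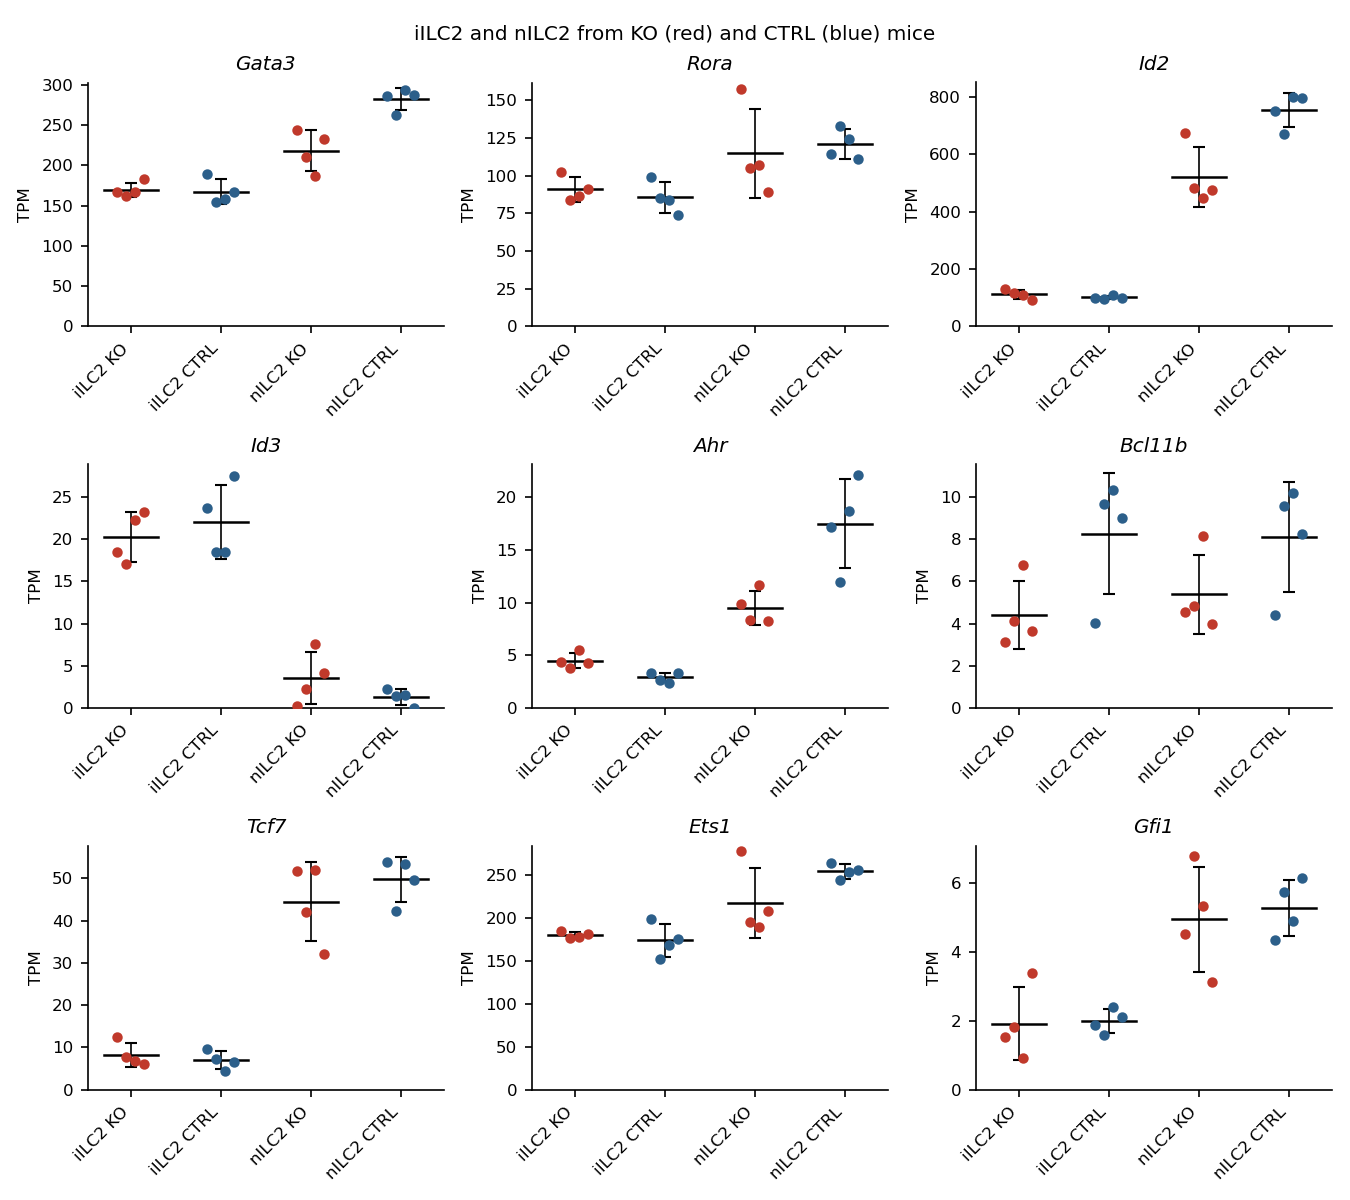
TPM of the 9 members in each sorted library (points), with the mean (line) and SD (bars, n = 4), for iILC2 and nILC2 from KO mice (red) and CTRL mice (blue). Id2 lies at 93.2 to 131 TPM in all 8 iILC2 libraries and at 446 to 799 TPM in all 8 nILC2 libraries, and Id3 is the member that is higher in iILC2s.

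Around these members, Tcf3 was lower in CTRL iILC2s, at 9.80 TPM against 14.3 TPM in CTRL nILC2s (-0.51, adjusted p = 0.010), and 0 of the 3 listed E proteins were called in KO mice. Of 17 other ILC transcription factors 6 were higher and 3 lower in CTRL iILC2s, and 4 were higher and 3 lower in KO iILC2s. Of all genes 21.9% were called higher and 23.6% lower in CTRL iILC2s, and 13.8% and 17.6% in KO iILC2s. Lef1, whose product is a close relative of TCF-1, averaged 41.1 TPM in CTRL iILC2s and 10.8 TPM in CTRL nILC2s (1.84, adjusted p = 6.4e-07), the opposite direction to Tcf7. Tox2 was higher in CTRL iILC2s (1.44), and Tox (-1.13) and Notch2 (-1.12) were lower.

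Of 7 listed AHR pathway genes 4 were higher and 1 lower in CTRL iILC2s, although Ahr itself was lower. The shares of all genes were 21.9% higher and 23.6% lower in CTRL iILC2s, and 13.8% and 17.6% in KO iILC2s. Nqo1 averaged 20.8 TPM in CTRL iILC2s and 6.62 TPM in CTRL nILC2s (1.58), and Tiparp 36.7 TPM in CTRL iILC2s and 19.0 TPM in CTRL nILC2s (0.93), while Arnt was lower (-0.51). Of 13 receptor and effector genes 2 were higher and 9 lower in CTRL iILC2s, and 1 was higher and 8 lower in KO iILC2s. The IL-33 receptor gene Il1rl1 was at 3.49 TPM in CTRL iILC2s and 66.8 TPM in CTRL nILC2s, Il2ra at 1.71 TPM in CTRL iILC2s and 53.7 TPM in CTRL nILC2s, and Il7r at 25.9 TPM in CTRL iILC2s and 313 TPM in CTRL nILC2s. These 3 ILC2 markers were thus low in the CTRL cells labelled iILC2. Of all 10 ILC2 markers, 8 were called lower and 1 higher in CTRL iILC2s, and 5 lower and 1 higher in KO iILC2s. The ILC2 marker sum, which includes Gata3 and Rora, ran from 1285 to 1445 TPM in iILC2s and from 1634 to 2325 TPM in nILC2s. The T cell sum ran from 26.4 to 62.3 TPM in iILC2s and from 77.9 to 182 TPM in nILC2s, and Cd79b from 232 to 282 TPM in iILC2s and from 117 to 154 TPM in nILC2s. Both listed myeloid markers, Cd68 and Itgam, were higher in iILC2s of either genotype, with a sum of 8.34 to 14.8 TPM in iILC2s and 0.790 to 4.59 TPM in nILC2s, while Lyz2, Csf1r and Adgre1 were not in the table. Itgam ran from 2.51 to 4.26 TPM in CTRL iILC2s and from 0 to 0.12 TPM in CTRL nILC2s. Prf1 was higher in iILC2s (0.91 in CTRL, 0.80 in KO), and Kit (-1.52 and -1.47) and Epcam (-1.78 and -1.28) were lower in both genotypes, while Krt18 was higher in CTRL iILC2s (1.32). Their part in the results on Tcf7, Id3 or the others was not tested.

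Loss of Rxrg was tested in each cell type. In nILC2s 3 of 9 members were called, all lower in KO, where 1.54% of 10069 genes were called, 0.943% higher and 0.596% lower. These were Gata3, Id2 and Ahr. In iILC2s 0 of 9 members were called, where 0% of genes were.

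Gata3 in nILC2s was at 244, 211, 186 and 233 TPM in KO and 286, 263, 294 and 287 TPM in CTRL libraries, and Ahr at 9.83, 8.32, 11.7 and 8.25 TPM in KO and 17.2, 12.0, 18.7 and 22.2 TPM in CTRL libraries. Neither gene's ranges overlapped. Gata3 fell by 0.37 (SE 0.08, adjusted p = 0.038) and Ahr by 0.80 (SE 0.18, adjusted p = 0.041). Id2 was at 675, 483, 446 and 474 TPM in KO and 751, 672, 799 and 797 TPM in CTRL libraries, a fall of 0.55 (SE 0.11, adjusted p = 0.029), with KO library 1 just above the lowest CTRL library. The others were not called: Rora (-0.10, adjusted p = 0.72), Id3 (0.78, adjusted p = 0.34), Bcl11b (-0.50, adjusted p = 0.36), Tcf7 (-0.18, adjusted p = 0.69), Ets1 (-0.24, adjusted p = 0.20) and Gfi1 (-0.11, adjusted p = 0.84).

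Of 10 ILC2 markers 2 were called lower in KO nILC2s, Gata3 itself and Il17rb, where 0.596% of all genes were. The marker sum, which includes Gata3, ran from 1634 to 2156 TPM in KO and from 2081 to 2325 TPM in CTRL libraries. The epithelial marker sum ran from 12.0 to 16.5 TPM in KO and from 18.4 to 30.4 TPM in CTRL libraries, with Epcam called lower (9.96 TPM in KO and 20.8 TPM in CTRL, adjusted p = 0.041) and Krt18 not called. The T cell sum ran from 77.9 to 150 TPM in KO and from 110 to 182 TPM in CTRL libraries, and 0 of the listed T cell, NK, B cell, myeloid and mast cell markers were called. The part of these in the values of Gata3, Id2 and Ahr was not tested.

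The 3 calls rested on which libraries were in the fit. With KO library 2, 3 or 4 or CTRL library 1, 3 or 4 left out, 0 of the 3 passed the threshold, with adjusted p from 0.050 to 0.14, though all 3 stayed lower in KO. Without KO library 1, 5 members were called among 1006 genes, with Id3 higher (1.31, adjusted p = 0.022) and Ets1 lower (-0.36, adjusted p = 0.0081) in addition. Fitted on the nILC2 libraries alone, 0 members and 5 genes were called. At a pseudocount of 0.1 TPM Ahr had an adjusted p of 0.056. With the median of ratios 75.0% of all called genes were higher in KO, against 61.3% on TPM as deposited. With a term for Y-linked expression, chosen after seeing the data, Id2 alone of the 9 was called, and Gata3 and Ahr had adjusted p = 0.059 and 0.055.

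**Figure D3:**
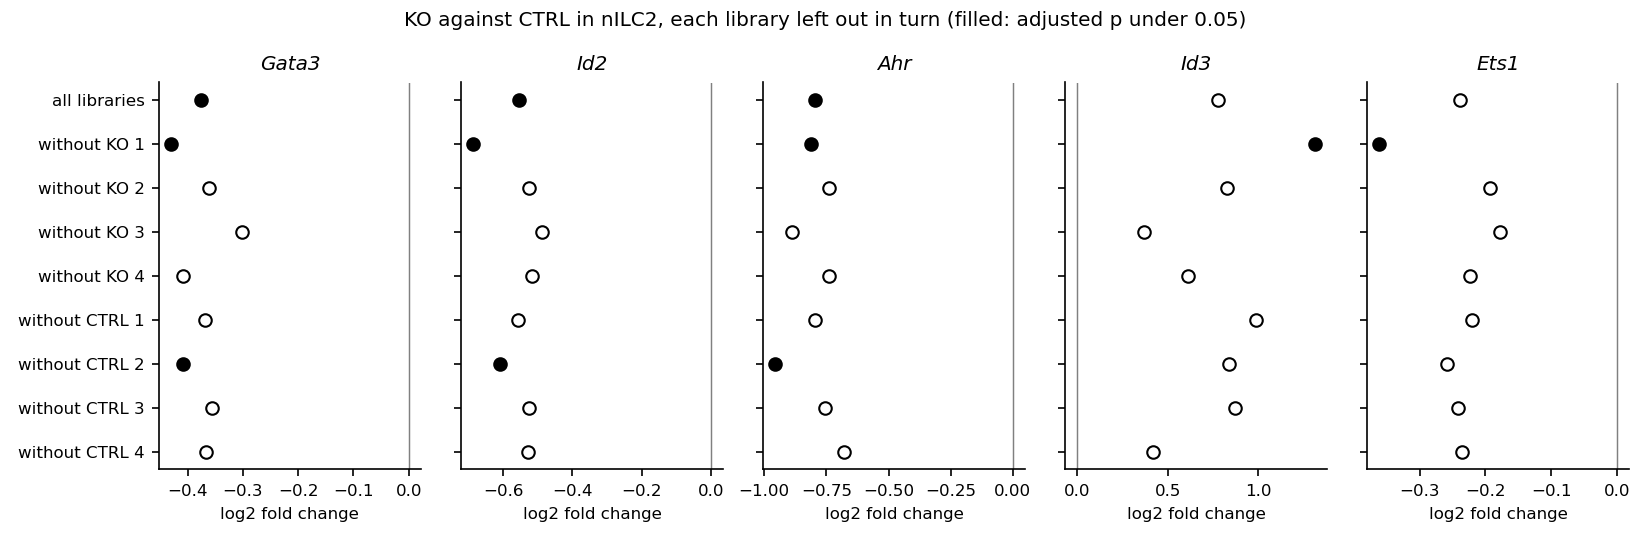
Log2 difference of KO against CTRL nILC2s for Gata3, Id2, Ahr, Id3 and Ets1, with all libraries and with each of the 8 nILC2 libraries left out in turn; filled points have an adjusted p under 0.05 (limma) and x axes differ. Gata3, Id2 and Ahr stay below 0 in every row but are filled only with all libraries, without KO 1 and without CTRL 2.

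In iILC2s, Ahr was at 4.38, 3.79, 5.50 and 4.28 TPM in KO and 3.32, 2.63, 2.41 and 3.28 TPM in CTRL libraries, so every KO library lay above every CTRL library, but the difference of 0.49 (SE 0.18) had an adjusted p of 1.0. Bcl11b was at 3.13, 4.13, 6.77 and 3.66 TPM in KO and 4.02, 9.65, 10.4 and 9.03 TPM in CTRL libraries (-0.75, SE 0.29, adjusted p = 1.0). At an unadjusted p under 0.05 limma returned 328 genes, 3.26% of those tested, and 2 of the 9 members. Leaving out any 1 library left the count of members called at 0.

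The difference between the KO effects of the cell types was 1.28 for Ahr (SE 0.26, adjusted p = 0.084), 0.70 for Id2 (SE 0.16, adjusted p = 0.17) and 0.40 for Gata3 (SE 0.12, adjusted p = 0.32), iILC2 minus nILC2. None of 9 members passed, where 0% of genes did, and 1059 genes, 3 of the members among them, had an unadjusted p under 0.05. Without nILC2 KO library 1, Ahr and Id2 passed (adjusted p = 0.035 and 0.0089), and without nILC2 CTRL library 2 Ahr passed (adjusted p = 0.027). With library quality weights Id2 and Ahr passed, each at adjusted p = 0.039.

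Of the listed pathway genes, 0 of 3 E proteins and 0 of 17 other ILC transcription factors were called in KO nILC2s, where 1.54% of all genes were. Called were 1 of 7 AHR pathway genes, Hsp90ab1, an AHR chaperone (0.28, higher in KO), and 1 of 13 receptor and effector genes. The receptor gene was Il17rb, at 209 TPM in KO and 286 TPM in CTRL libraries (-0.45, adjusted p = 0.034). None of these lists had a called member in iILC2s, where 0% of all genes were called.

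**Figure D4:**
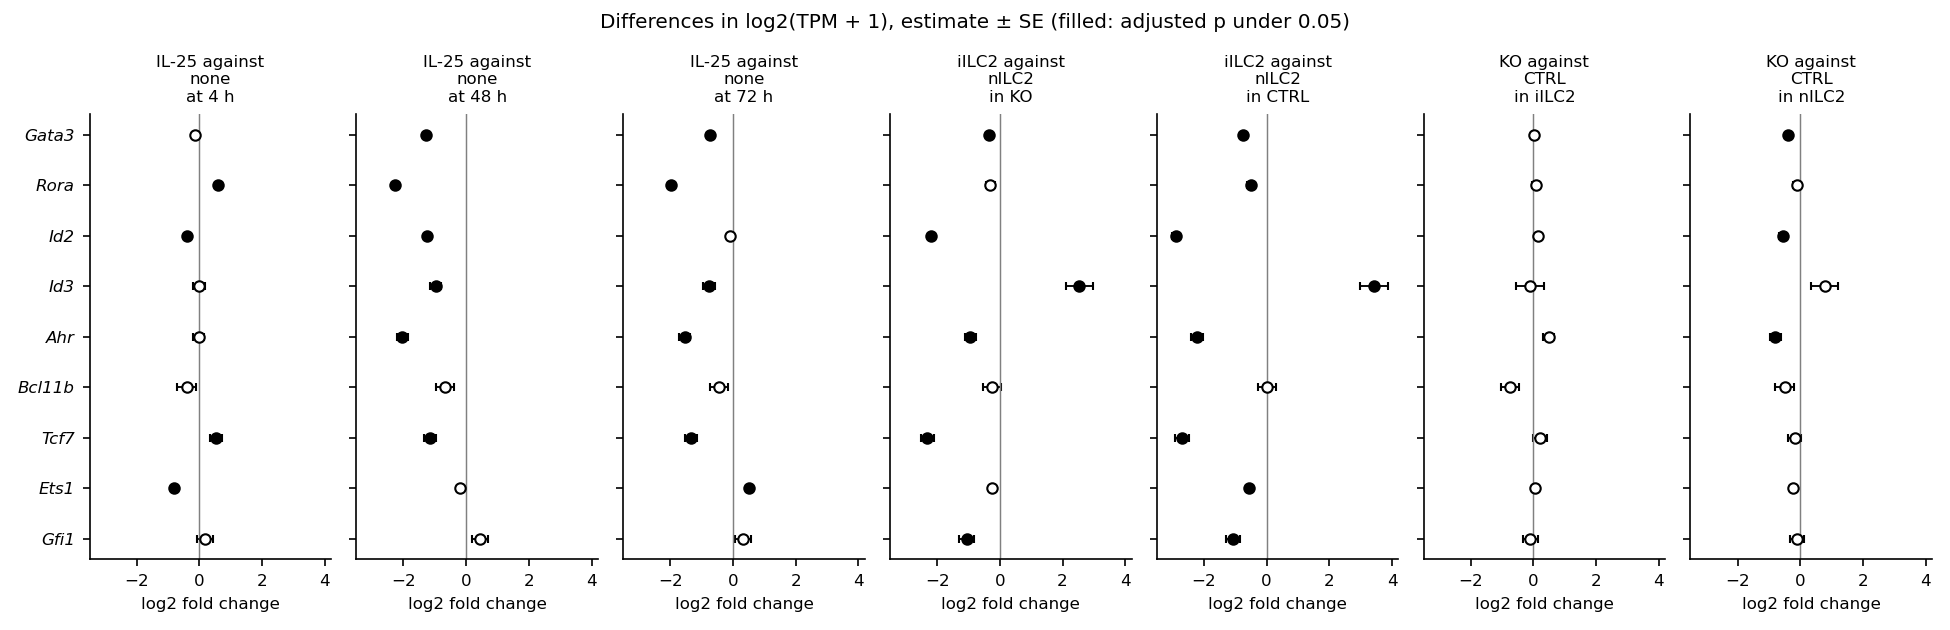
Log2 difference ± SE of each member in 7 comparisons (limma on log2(TPM + 1); filled points have an adjusted p under 0.05). Filled points are common in the IL-25 and cell type panels, 3 appear for KO against CTRL in nILC2s and none in iILC2s.

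For each member, the 3 genes with the most similar pattern over the 24 culture libraries were looked up among 10235 named genes (Pearson r of log2(TPM + 1)). Libraries fall into 6 groups here, so r mostly follows the group means and is given as a description. Rora was most like Gpr183 (r = 0.985), Relb (0.984) and Nav2 (0.978), and Ahr and Tcf7 had the same first neighbours, Nrp1 (0.983 and 0.980) and Nr1d2 (0.981 and 0.980), followed by Mgat5 (0.979) for Ahr and Riox2 (0.979) for Tcf7. Id2 was most like Isg20 (0.976), Ly6a (0.959) and Ube2h (0.954), and Gata3 most like H2-D1 (0.969), Lcp2 (0.961) and Hs3st1 (0.960). Id3 was most like Mcub (0.976), Mns1 (0.975) and E2f1 (0.972), and Ets1 most like Creb3l2 (0.912), Zyx (0.887) and Abr (0.885). The nearest genes to Bcl11b (Fam98c, Rexo2 and Xpa) and Gfi1 (Gmppb, Septin5 and Fam83g) reached only 0.801 and 0.658.

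Some of these likenesses carried over to the 16 sorted libraries and some turned round. Over those libraries r was 0.945 for Tcf7 with Nrp1, 0.915 for Ahr with Nrp1, 0.974 for Id2 with Ly6a and 0.943 for Gata3 with H2-D1. It was -0.895 for Id3 with Mns1, -0.715 for Tcf7 with Riox2 and -0.402 for Gfi1 with Gmppb.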

How the data were processed

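Gene-level TPM was deposited by the authors in 2 tables, each with 4 libraries a group. The submitters' processing notes name cutadapt 2.10, STAR 2.7.5c and RSEM 1.3.3 with the mm10 build, without saying which step made the tables or which genes were left out of them. The tables were modelled apart in limma (version 3.58.1 under R 4.3.3; lmFit, then eBayes with trend). Values entered as log2(TPM + 1), with 1 mean per group, for genes reaching 1 TPM in 4 libraries or more, and with Benjamini-Hochberg adjustment over all genes tested in each of 14 comparisons. Comparisons that share a group are not independent. Rxrg was compared by an exact permutation test. TPM holds no depth, so no counting interval is given.

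The 9 members and the pathway and marker lists were chosen with earlier results of these data known. Named were the 9 members, Rxrg, the 3 genes most like each member, and up to 4 called members of each list with the largest difference, or every member of a list of up to 6, except 1 gene that is not reported here. Library numbers were taken to pair 2 groups where all 4 same-numbered pairs deviated together with r over 0.1. KO nILC2s and KO iILC2s met this (r from 0.102 to 0.231), so a replicate block was read beside that comparison. No other pair of groups did, though all 4 values were positive for CTRL iILC2s and CTRL nILC2s (0.049 to 0.253). Pairs across genotypes reached similar values, such as KO nILC2s with CTRL iILC2s (-0.019 to 0.243). The sorted libraries under 5 TPM of Y-linked transcripts had the same numbers in both cell types, 2 in CTRL and 1 and 2 in KO. Numbers may thus mark shared samples in CTRL mice too, which the labels do not state. Alternatives were another pseudocount, other filters, median-of-ratios and quantile scaling, compared groups alone, array weights, the replicate block, each library left out, and a Y-linked term. The 14 chromatin samples were not analysed here.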

Additional observations from a re-analysis of the deposited data

Results flagged for a closer look

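In 5 of 90 sets of 4 libraries, 1 value stood farther from the other 3 than Dixon's 95% limit allows, where chance alone marks about 1 set in 20. These were Id2 with IL-25 at 4 h (library 2, 373.66 TPM), Id2 without IL-25 at 48 h (library 3, 895.6 TPM), Bcl11b with IL-25 at 72 h (library 4, 3.69 TPM), Tcf7 with IL-25 at 4 h (library 2, 6.21 TPM) and Id2 in KO nILC2s (library 1, 674.7 TPM). Without the last of these, Id2 in KO nILC2s fell further, and the number of members called between KO and CTRL nILC2s was 5.

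The effect of IL-25 at 48 h differed from that at 4 h, by limma's test of the difference, for Gata3 (-1.15), Rora (-2.87), Id2 (-0.88), Id3 (-0.96), Ahr (-2.03), Tcf7 (-1.69) and Ets1 (0.58). The effect at 72 h differed from that at 48 h for Gata3 (0.55), Id2 (1.16) and Ets1 (0.71). Both differences share the libraries of 48 h.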

How the results depend on the processing

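Of 62 called results among 126 (9 members in 14 comparisons), 51 kept their direction and call in every alternative run. Over 2268 alternative values 2141 kept both, 42 lost a call, 29 gained one and 56 changed sign, 1 of these from a called value. TPM holds no depth, so precision at low levels (Id3 at 4 h, Tcf7 at 48 and 72 h with IL-25) cannot be given. Gfi1 was below the filter of 5 TPM in the culture table and has no value there. The causes of the shifts below were not tested.

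With the median of ratios the called fall of Id2 at 48 h against 4 h with IL-25 turned to 0.13, and uncalled values changed sign at 4 h with IL-25 (Gata3 0.0097, Id3 0.015, Ahr 0.13), for Id2 at 72 h with IL-25 (0.13), for Ets1 (0.23) and Gfi1 (0.18) at 48 h against 4 h with IL-25 and for Bcl11b at 72 h against 48 h without it (-0.047). With quantile normalization these were Id3 (0.057) and Ahr (0.089) at 4 h, Ets1 (0.040) and Gfi1 (0.13) at 48 h against 4 h with IL-25, Bcl11b at 72 h against 48 h without it (-0.039), and Gfi1 for the difference of KO effects (-0.022), which was also -0.050 at a pseudocount of 0.1 TPM and -0.089 with array weights. Bcl11b was at -0.0037 with array weights at 72 h against 48 h without IL-25, and Id3 at 0.044 with the Y-linked term for KO against CTRL in iILC2s.

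Counts of calls moved by over 1.5 times in 3 comparisons, single libraries left out aside. At 72 h against 48 h without IL-25, where 40 genes and 1 member were called, a pseudocount of 0.1 TPM gave 26 genes and 0 members, quantile normalization 86 genes, the compared groups alone 1 gene, which was Id3, and array weights 64 genes. For KO against CTRL in nILC2s, where 155 genes and 3 members were called, a pseudocount of 0.1 TPM gave 82 genes, the median of ratios 272 (75.0% higher in KO, against 61.3%), the groups alone 5 genes and 0 members, array weights 275 genes, the replicate block 317 genes, and the Y-linked term 87 genes and 1 member. For the difference of KO effects, where 0 were called, quantile normalization gave 1 gene, array weights 21 genes and 2 members, the replicate block 8 genes and the Y-linked term 5 genes.

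With 1 library left out at a time, all genes called ran from 11 (without library 3 of 72 h) to 49 (without library 3 of 48 h) at 72 h against 48 h without IL-25. They ran from 23 (without CTRL library 4) to 1006 (without KO library 1) for KO against CTRL in nILC2s, with 0 to 5 members, and from 0 to 132 (without nILC2 KO library 1) for the difference of KO effects, with 0 to 2 members. Uncalled values ran across 0 as follows. With IL-25 at 4 h, Ahr ran from -0.094 to 0.087 and Id3 from -0.26 to 0.10. For the difference of IL-25 effects, Gfi1 ran from -0.031 to 0.46 at 48 h against 4 h and from -0.32 to 0.045 at 72 h against 48 h. Without IL-25, Bcl11b ran from -0.23 to 0.23 at 48 h against 4 h and from -0.20 to 0.23 at 72 h against 48 h, where Tcf7 ran from -0.031 to 0.18. At 48 h against 4 h with IL-25, Gfi1 ran from -0.32 to 0.13 and Ets1 from -0.11 to 0.0090. For KO against CTRL, Rora ran from -0.26 to 0.0078 and Gfi1 from -0.25 to 0.055 in nILC2s, and Gata3 from -0.016 to 0.083, Ets1 from -0.0074 to 0.12, Id3 from -0.18 to 0.0016 and Gfi1 from -0.32 to 0.084 in iILC2s. Gfi1 ran from -0.21 to 0.19 for the difference of KO effects, and Bcl11b from -0.22 to 0.28 for iILC2 against nILC2 in CTRL.

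Smaller moves added members. For IL-25 at 48 h, 6 were called, against 5 at a pseudocount of 0.1 TPM, 7 with array weights (Bcl11b added), 8 with quantile normalization (Ets1, adjusted p = 0.0027, and Gfi1 added) and 6 to 9 with 1 library left out (9 without library 1 lacking IL-25). For iILC2 against nILC2 in KO, 6 were called, against 8 with quantile normalization (Rora, adjusted p = 0.044, and Ets1, adjusted p = 0.020, added). The replicate block gave 7 members for IL-25 at 48 h (Ets1 added, adjusted p = 0.043) and 8 for iILC2 against nILC2 in KO, and changed no other member's call. Numbers met the rule for pairing in the KO groups alone, although Y-linked transcripts followed the numbers across cell types in CTRL mice as well.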

Other observations

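Bcl11b was lowest in library 1 in 6 of 10 groups. Gata3 was lowest in library 2 in 6 of 10 groups.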
